A study of Mus musculus with 6 samples.

Results

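Ras guanine nucleotide exchange factor genes were examined for peaks of DNA pulled down together with Tug1, a long noncoding RNA, from mouse podocyte chromatin. Members were the 8 genes Sos1, Sos2, Rasgrf1, Rasgrf2, Rasgrp1, Rasgrp2, Rasgrp3 and Rasgrp4, out of 21883 protein-coding genes in the annotation, and every deposited peak inside one of them or within 5 kb of it was counted. The gene family was selected on the peak positions of these same lists, with the regions of Sos2 and Rasgrf2 found in every pulldown already known. Peak counts, positions and scores are therefore given as a description, with no test.

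The cells were an immortalized kidney podocyte line with a temperature-sensitive SV40 T antigen, grown at 33 degrees and then kept at 37 degrees for 10 days to differentiate, at passages 10 to 12. Nuclear chromatin crosslinked with glutaraldehyde was incubated with biotinylated oligonucleotides complementary to Tug1 (ChIRP-seq), and the 48 oligonucleotides alternated along the RNA between 2 sets, even and odd, with no probe in common. Each set was used in 2 pulldowns, numbered replicates 1 and 2, and 2 input DNA libraries entered only through the authors' peak calls. Whether the replicates were separate cultures is not stated in the labels, and their spread can be a technical one. All 4 pulldowns target the same RNA in the same unperturbed cells, and a pulldown with unrelated probes was not analysed here. The identity of the cells could not be checked against podocyte markers, because the files list DNA regions and not transcripts.

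Ras proteins are small GTPases that are active when bound to GTP, and exchange factors switch them on by releasing GDP through a catalytic CDC25 domain. The exchange factor families differ in what recruits them. SOS proteins are carried by the adaptor Grb2 to activated receptor tyrosine kinases. RASGRF proteins bind calmodulin and respond to calcium, and most RASGRP proteins respond to diacylglycerol. Podocytes carry receptor tyrosine kinases, a class of receptor that signals through Ras.

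The 4 lists held 40725 and 26529 peaks in even replicates 1 and 2, and 28047 and 34968 peaks in odd replicates 1 and 2. Peak lists carry no read counts, so sequencing depth is unknown and no counting interval could be formed. Each peak has the authors' score, whose scale is not stated. In even and odd replicate 1, 78.6% and 99.9% of peaks share the value 3100, so a percentile there says little, and tied peaks were all given the middle rank of the tie (58.8 in even replicate 1 and 50.04 in odd replicate 1). In even and odd replicate 2 the score varied, with medians of 265 and 221. Peaks overlapping by at least 1 bp were joined into 113114 regions, of which 748 held a peak of every library.

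Sos2 and Rasgrf2 carried every region of the family that was recovered by both probe sets, and the other 6 genes carried none. Together the 8 genes had 45 peaks, in 32 separate regions. Of these regions 26 (81.25%) came from 1 library, 2 from 2 libraries, 1 from 3 libraries and 3 from all 4. Among the 57217 regions in or near any protein-coding gene, 88.2% came from 1 library and 0.584% from all 4. A region of at least 1 even and 1 odd library lay at 2 of the 8 genes, against 16.0% of all protein-coding genes, and against 2.15 of 8 expected from genes of like length (for each member, the share among the 200 other protein-coding genes nearest in length). A region of all 4 libraries lay at the same 2 genes, against 1.60% of protein-coding genes. The number of such regions was 3, where genes of like length gave a sum of 0.185. Regions with both an even and an odd peak numbered 4, where genes of like length gave a sum of 2.825, and without Sos2 they numbered 1, against 2.475.

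The peak numbers themselves were close to what gene length gives. Even replicates 1 and 2 had 15 and 7 peaks at the 8 genes, and odd replicates 1 and 2 had 10 and 13. The probe sets thus averaged 11 ± 5.66 peaks (even) and 11.5 ± 2.12 peaks (odd, SD, n = 2 each), a difference smaller than the spread within either set. Genes of like length summed to 15.3 and 8.76 peaks in the even lists and 10.4 and 11.6 in the odd lists. Over all lists the members had 0.977 times the peaks of genes of like length (SD over the 4 libraries 0.132). Without Sos2 the ratio was 0.820, with 33 peaks against 40.3. Members with at least 1 peak numbered 6 and 2 in even replicates 1 and 2, and 5 and 7 in odd replicates 1 and 2. The matching shares of all protein-coding genes were 48.9% and 35.5% in the even lists and 40.0% and 42.7% in the odd lists, and genes of like length gave 5.87 and 4.74, and 5.15 and 5.26, genes of 8. Peak numbers of the 2 even and the 2 odd lists did not overlap at 3 of the 8 genes (Rasgrf2, higher in the even lists, and Rasgrf1 and Rasgrp2, higher in the odd lists), against 11.0% of protein-coding genes and 1.27 of 8 by length. Any peak at all was present at 7 of the 8 genes, against 74.9% of protein-coding genes and 7.425 of 8 by length.

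**Figure D1:**
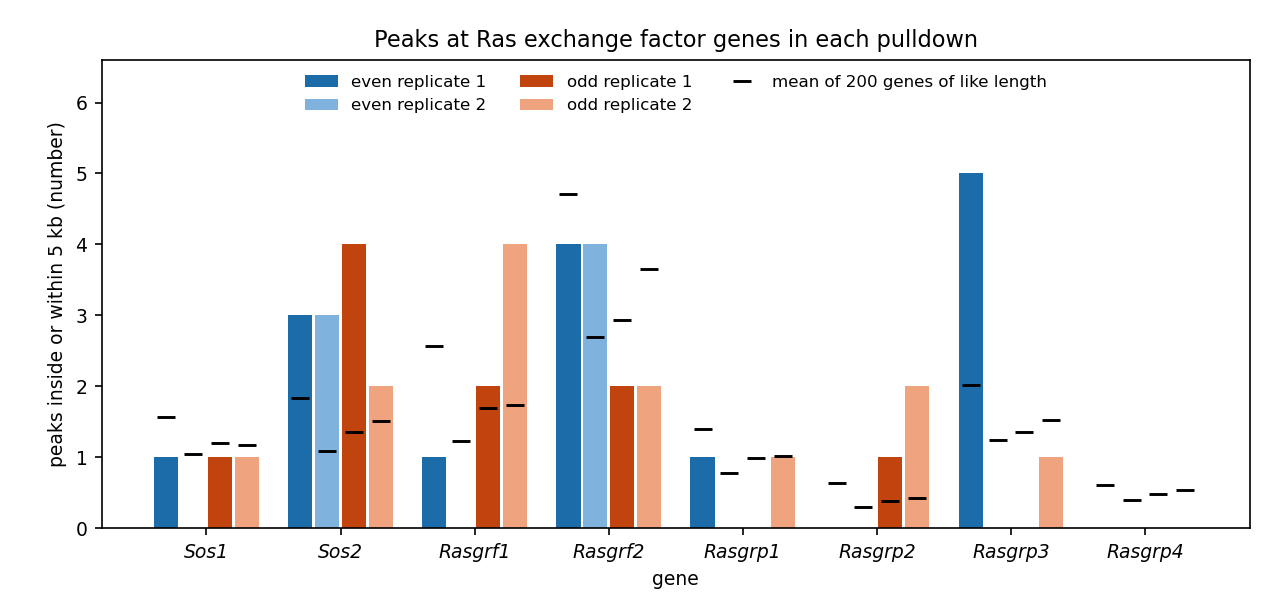
Number of peaks inside or within 5 kb of each gene (vertical axis) in the 4 pulldown libraries (bars), with the mean of the 200 protein-coding genes nearest in length for the same library (black ticks). Sos2 stands above its ticks in every library, Rasgrp3 only in even replicate 1, and Rasgrp4 has no peak.

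No peak of any library lay at an annotated start of these genes. RefSeq promoter windows, which run from 250 bases before to 50 bases after a start, were given for 7 of the 8 genes (9 windows), and all 9 were empty. Of 32815 such windows of all genes, 4.46% overlapped a peak of any library. The upstream bases of the Sos2 and Rasgrf2 starts (RefSeq, GRCm38.p6, both genes on the minus strand) are printed because the distances of the shared regions are counted from there, with CG pairs in capitals.
Sos2, chr12:69681853-69682102, minus strand: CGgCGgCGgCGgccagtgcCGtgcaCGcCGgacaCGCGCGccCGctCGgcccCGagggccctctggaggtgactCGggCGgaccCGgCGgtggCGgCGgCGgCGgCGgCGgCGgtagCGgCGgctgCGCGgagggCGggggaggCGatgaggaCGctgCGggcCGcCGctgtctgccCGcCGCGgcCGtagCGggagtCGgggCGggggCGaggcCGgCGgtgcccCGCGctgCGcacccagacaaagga
Rasgrf2, chr13:92131829-92132078, minus strand: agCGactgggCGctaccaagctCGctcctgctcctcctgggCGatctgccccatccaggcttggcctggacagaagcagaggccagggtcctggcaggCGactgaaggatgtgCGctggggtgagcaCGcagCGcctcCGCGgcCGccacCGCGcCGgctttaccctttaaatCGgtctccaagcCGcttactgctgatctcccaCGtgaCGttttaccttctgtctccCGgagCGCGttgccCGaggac
The pair CG, which reads the same on both strands, occurs 47 times in the Sos2 window and 22 times in the Rasgrf2 window. The median over the upstream windows of 21228 protein-coding starts is 10, and 93.4% of them hold at least 1. The Sos2 start thus lies in a stretch denser in CG than 99.7% of these windows. The nearest peak centre was 27.7 kb from the Sos2 start and 14.7 kb from the Rasgrf2 start.

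Sos2, one of a pair of SOS exchange factors in mice, is a gene of 98.1 kb (gene ID 20663) at chr12:69583761-69681852. It had 3 peaks in even replicate 1 and 3 in even replicate 2, against 4 and 2 in odd replicates 1 and 2, and all 12 lay inside the gene. They fell into 4 regions, so most of the peaks of 1 library had a counterpart in the others. None of them overlapped another annotated gene, and exons and introns were not separated, since the annotation used gives gene ends only.

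The first shared region of Sos2, at chr12:69608254-69608934, was 73.3 kb from the start, or 74.7% of the way along the gene. It held a peak in every library. The score was 3100 and 741 in even replicates 1 and 2, and 3100 and 447 in odd replicates 1 and 2. In the lists where scores vary this is the 96.8 percentile of even replicate 2 and the 88.7 percentile of odd replicate 2. The 4 peaks shared a stretch of 374 bp (69608393 to 69608766). Starts of even replicate 2 and of both odd replicates lay between 69608254 and 69608258, and even replicate 1 began at 69608393.

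The second shared region of Sos2, at chr12:69610915-69611858, lay 1981 bp away, 70.5 kb from the start. Scores were 3100 and 276 in even replicates 1 and 2, and 3100 and 291 in odd replicates 1 and 2, which places it near the middle of the replicate 2 lists (52.7 and 68.1 percentiles). Its peaks were offset more, with starts spread over 318 bp and a common stretch of 231 bp. Among all 748 regions of 4 libraries, 72.6% scored lower than the first and 24.3% lower than the second in even replicate 2, and 44.7% and 24.5% did so in odd replicate 2. Neither thus stood at an extreme of that set by score. No other region of all 4 libraries lay within 142 kb of the pair.

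Another region of Sos2, at chr12:69653950-69654435 and 27.7 kb from the start, came from 3 libraries. It had a score of 247 in even replicate 1, which is the 0.0651 percentile of that list, 132 in even replicate 2 (7.11 percentile) and 3100 in odd replicate 1, and odd replicate 2 had no peak there. It was thus a low-scoring region in both even lists, although its peaks coincided closely (starts within 32 bp, common stretch 335 bp). The last region, at chr12:69645823-69646048, was a single peak of odd replicate 1 with score 3100.

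Among the 200 genes nearest to Sos2 in length, 190 had fewer peaks and 9 had more, with a median of 5 and a mean of 5.795. Counted as merged regions, Sos2 had 4, against a median of 5. The 12 peaks thus fell in about as many separate places as the peaks of other genes of its length. Regions with an even and an odd peak numbered 3, a count reached by 2 of the 200 and exceeded by none, and 1.01% of all protein-coding genes had at least 3. None of the 200 had 2 regions of all 4 libraries, while 4 had 1. Among all protein-coding genes 19, or 0.0868%, had 2 or more.

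Its paralog Sos1 (gene ID 20662, chr17:80393752-80480453), the SOS protein most studied in receptor signalling, is nearly as long, at 86.7 kb. It had 1 peak in even replicate 1 and none in even replicate 2, against 1 in each odd replicate. The 3 peaks lay at 3 different places, 33.3 to 61.0 kb from the start, with scores of 2648 in even replicate 1 (12.5 percentile), 3100 in odd replicate 1 and 189 in odd replicate 2 (39.0 percentile). The peak of odd replicate 1, at chr17:80419328-80419553, also lies inside Arhgef33, a gene that overlaps Sos1. Of 200 genes of like length 130 had more peaks than Sos1 and 38 had fewer. Per 100 kb of gene and flanks, Sos1 had 3.10 peaks and Sos2 11.1 over the 4 lists. In these numbers a place found in several libraries counts once for each. As merged regions Sos1 had 3 and Sos2 had 4. Rasgrp2 also had a high density, at 11.4 peaks per 100 kb, from 3 peaks in a window of 26.3 kb.

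**Figure D2:**
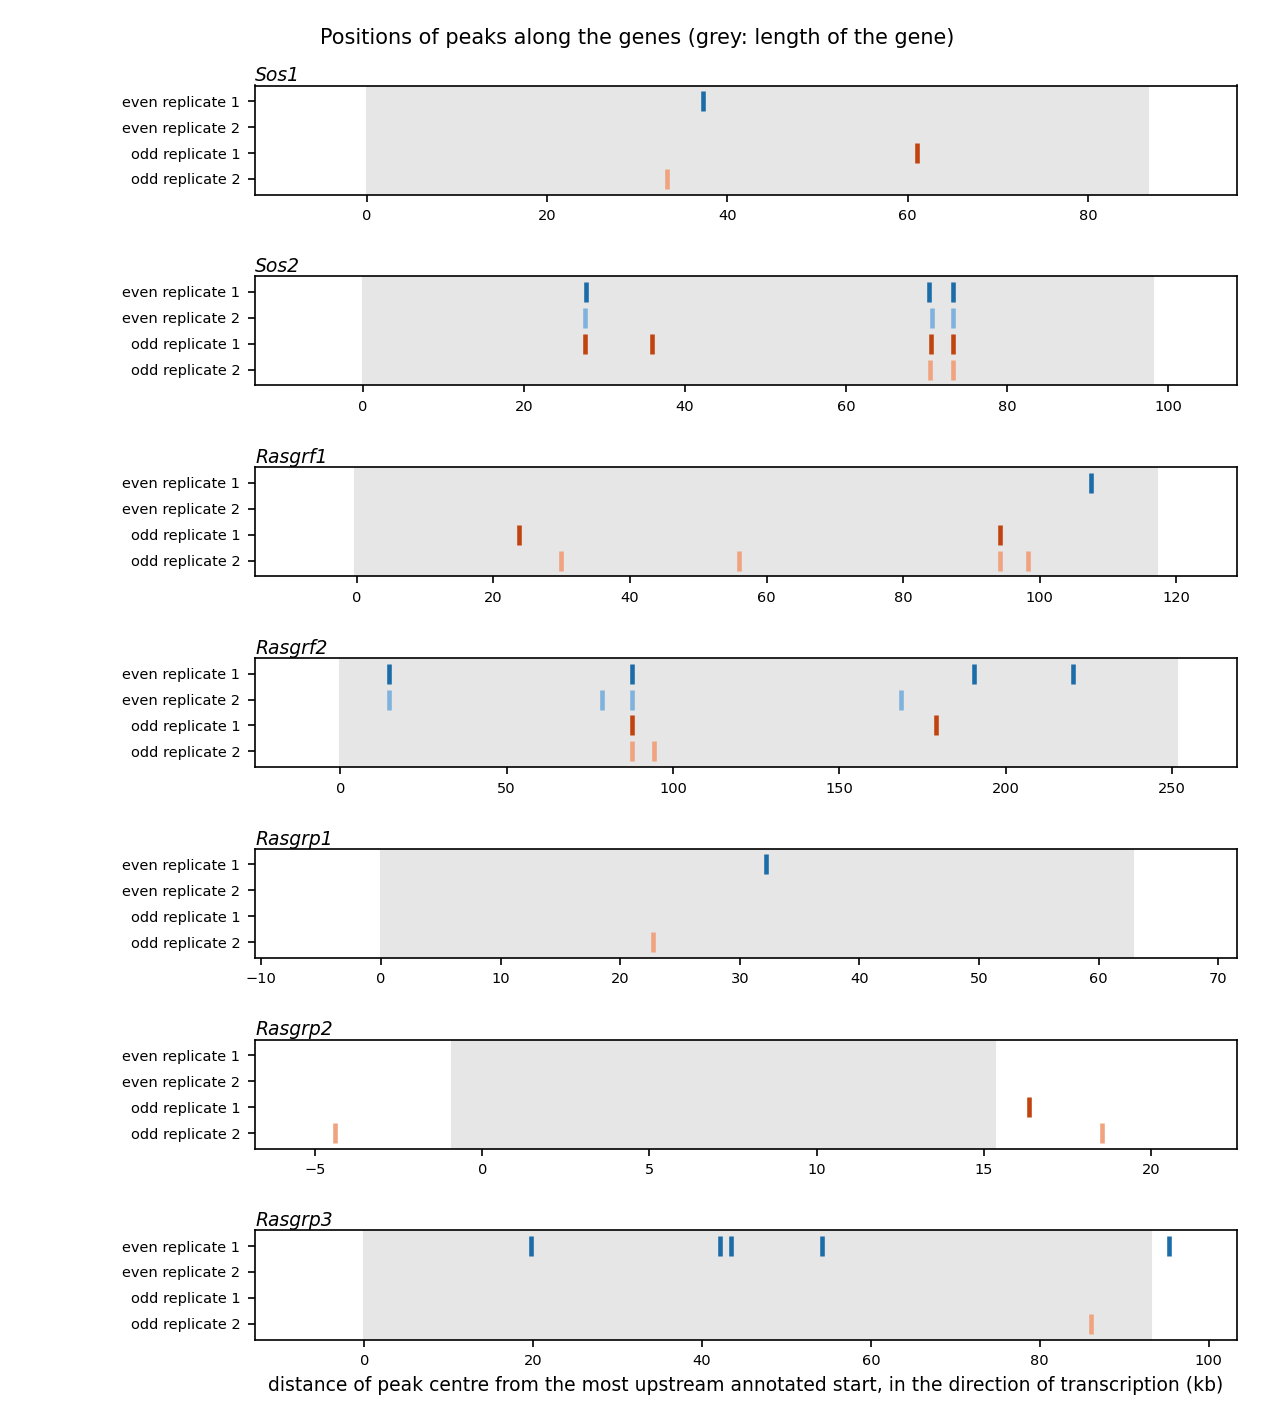
Distance of each peak centre from the most upstream annotated start, in kb along the direction of transcription, for the 7 genes with peaks, with 1 row per library and the gene in grey. Even and odd peaks line up at 3 places in Sos2 and 1 place in Rasgrf2, and elsewhere they are mostly single.

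Rasgrf2, a calcium-responsive exchange factor best known from brain, is the longest member, at 251 kb (gene ID 19418, chr13:91880407-92131828). It had 4 peaks in each even replicate, against 2 in each odd replicate, all inside the gene and in 8 regions. This is slightly below genes of like length, with 12 peaks in all against a median of 13 and a mean of 14.005, and 102 of the 200 had more. One region, at chr13:92043813-92044273 and 87.8 kb from the start, had a peak with score 3100 in every list. In the replicate 2 lists, where 0.0641% (even) and 0.100% (odd) of peaks have exactly that score, it stood at the 99.96 and 99.94 percentiles. Of the 748 regions of 4 libraries, 730 scored lower in even replicate 2 and 2 scored higher. In odd replicate 2, 719 scored lower and 3 higher. The rest, this region among them, were tied at 3100. In all 4 lists, 14 of the 748 reached 3100.

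The 4 peaks of that Rasgrf2 region nearly coincided. They began within 13 bp of each other, between 92043813 and 92043826, were 380 and 448 bp wide in even replicates 1 and 2 and 360 and 368 bp wide in odd replicates 1 and 2, and shared 355 bp. Over all regions of 4 libraries the median common stretch was 304 bp and the median width 540.5 bp. Within 100 kb to either side there were 7 regions, this one among them, and no other held an even and an odd peak. The nearest other region of 4 libraries was 2293 kb away. Such regions are few everywhere: 7.05% of all merged regions held an even and an odd peak, and 0.661% a peak of every library. Whether these distances are unusual was not tested. Of 200 genes as long as Rasgrf2, 13 held at least 1 region of 4 libraries.

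The other regions of Rasgrf2 did not join the probe sets. One, at chr13:92116849-92117320 and 14.7 kb from the start, had a peak in both even replicates, with scores of 3100 and 290 in replicates 1 and 2, and none in the odd lists. The remaining 6 were single peaks, 2 of even replicate 1 with scores of 1832 and 2183, 2 of even replicate 2 with 215 and 197, 1 of odd replicate 1 with 3100 and 1 of odd replicate 2 with 292. The 2 of even replicate 1 rank below the 5th percentile of that list (1.57 and 4.75).

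**Figure D3:**
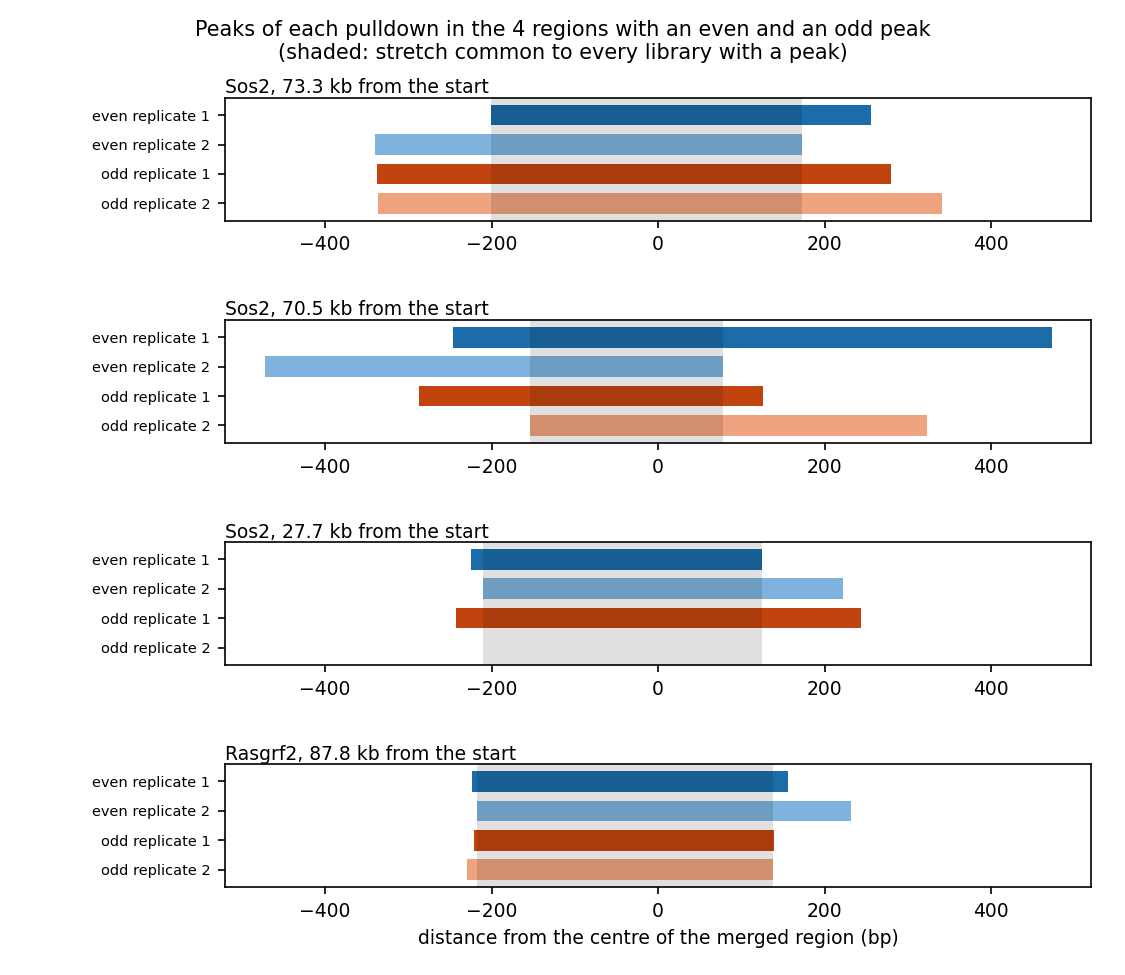
Extent of the peaks of each library around the centre of the 4 regions that hold an even and an odd peak, in bp, with the stretch common to all libraries present shaded. The Rasgrf2 peaks begin within 13 bp of each other and share 355 bp, while those of the second Sos2 region spread over 944 bp and share 231 bp.

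Rasgrf1, the imprinted paralog of Rasgrf2 that is expressed from the paternal allele in mouse brain, spans 117 kb (gene ID 19417, chr9:89909508-90026979). It had 1 peak in even replicate 1 and none in even replicate 2, against 2 and 4 peaks in odd replicates 1 and 2. Both odd counts were thus above both even counts. One region, at chr9:90003764-90004070, held both odd replicates, with scores of 3100 in replicate 1 and 282 in replicate 2 (66.2 percentile) and a common stretch of 228 bp. The other odd peaks were single, and the highest of them in odd replicate 2 scored 423 (86.8 percentile) at chr9:90007872-90008154. The even peak, at chr9:90017192-90017472 with a score of 3100, lay 107.6 kb from the start. The total of 7 equalled the median of genes of like length.

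The RASGRP genes, known mainly from blood cells, had no region recovered by both probe sets. Rasgrp3 (gene ID 240168, chr17:75435870-75529054), an exchange factor best known from B cells, had 5 peaks in even replicate 1 and none in even replicate 2, against none in odd replicate 1 and 1 in odd replicate 2. In even replicate 1 only 4 of 200 genes of like length had more than 5. Those 5 peaks lay 19.8 to 95.3 kb after the start, with scores of 3100 at 4 of them and 2433 at 1, and the odd peak scored 122 (10.3 percentile). No library repeated any of these places. Its total of 6 equalled the median of genes of like length, and without even replicate 1 its ratio to them was 0.243, against 0.977 with all libraries.

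Rasgrp1 (gene ID 19419, chr2:117279983-117342877), the exchange factor that links the T-cell receptor to Ras, had 1 peak in even replicate 1 and none in even replicate 2, against none in odd replicate 1 and 1 in odd replicate 2. The scores were 3100 (even) and 131 (odd, 14.1 percentile), at different places, 32.2 and 22.7 kb from the start. Of 200 genes of like length 141 had more peaks and 24 had fewer.

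Rasgrp2 (gene ID 19395, chr19:6398957-6415216), which activates Rap1 in platelets, had no peak inside the gene. Its window held no even peak, against 1 peak of odd replicate 1 and 2 of odd replicate 2. The 3 lay 802 bp (score 3100), 3345 bp (172) and 3032 bp (182) from the gene, 1 in the neighbouring gene Pygm and 2 in the lncRNA gene Gm14965, which overlaps the end of Rasgrp2. With 3 peaks Rasgrp2 had 1.72 times the mean of genes of like length, and 1.12 times that of the 50 nearest in length on chromosome 19. The ratio rested on single libraries, at 0.763 without odd replicate 2 and 2.70 without even replicate 1. Rasgrp4 (gene ID 233046, chr7:29134607-29153961), an exchange factor of mast cells, had no peak, as did 49 of 200 genes of like length. The closest peak of odd replicate 1 was 6318 bp away, and those of the other libraries were 58707 to 78868 bp away.

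Of the 45 peaks 41 lay inside a gene and 4 outside, at 802 to 3345 bp. Another 6 lay between 5 and 10 kb away, and the first beyond the limit was 5295 bp from Sos1, in even replicate 1. All 4 regions with an even and an odd peak lay inside a gene. The limit set the counts of Rasgrp2, whose ratio to genes of like length was 0 within the gene alone and 0.733 with 2 kb, and of Rasgrp4, whose ratio was 0.738 with 10 kb.

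**Figure D4:**
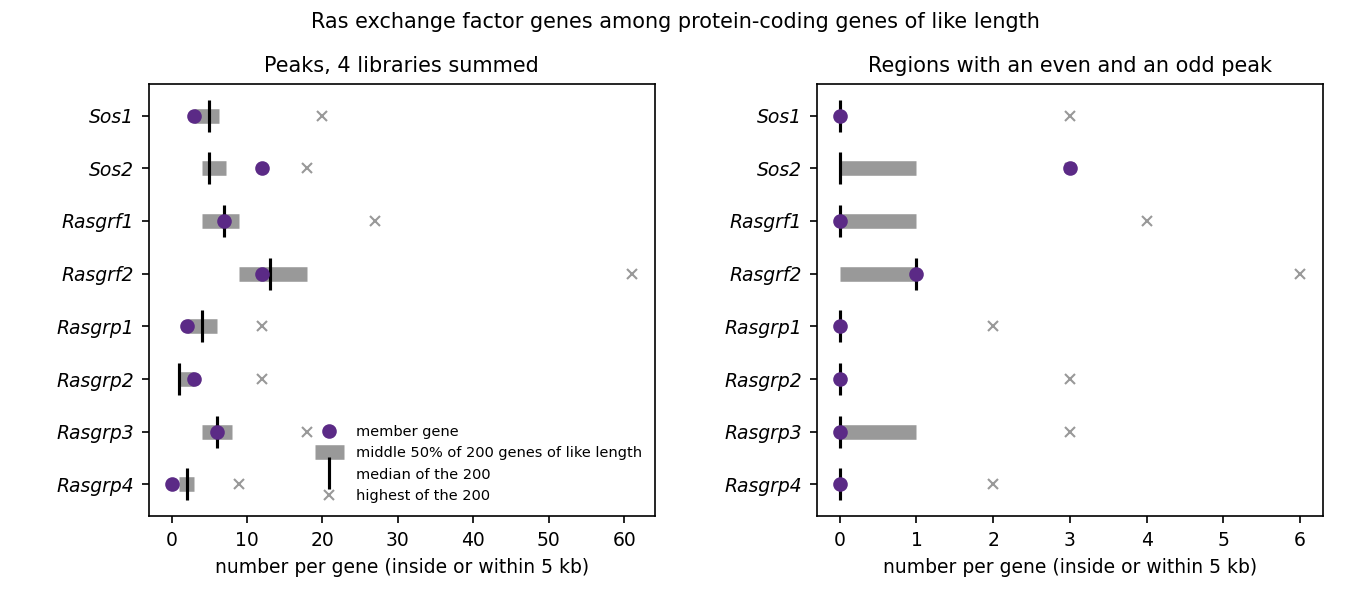
Peaks summed over the 4 libraries (left) and regions with an even and an odd peak (right) for each member gene (points), beside the middle 50%, the median and the highest value of the 200 protein-coding genes nearest in length. Sos2 is outside the middle 50% in both panels, with 12 peaks and 3 regions, and Rasgrf2 is at 12 peaks, inside it. In the left panel Rasgrp4, with no peak, is below the middle 50%, and Sos1, Rasgrp1 and Rasgrp2 lie on its edge.

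In the replicate 2 lists, where scores vary, shared and single member peaks can be set side by side. The 3 regions of 4 libraries stood at the 52.7 to 99.96 percentiles of even replicate 2 and at the 68.1 to 99.94 percentiles of odd replicate 2. Regions of 4 libraries mostly score above their list wherever they lie. Over all 748 the median score was 460 in even replicate 2 and 495 in odd replicate 2, against list medians of 265 and 221. Single-library member peaks stood at the 26.4 and 33.6 percentiles in even replicate 2 and between the 10.3 and 86.8 percentiles in odd replicate 2. The ranges overlapped in odd replicate 2, where single peaks of Rasgrf1 and Rasgrf2 stood above the second shared Sos2 region, and the 3-library region of Sos2 was the lowest member peak in even replicate 2.

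**Figure D5:**
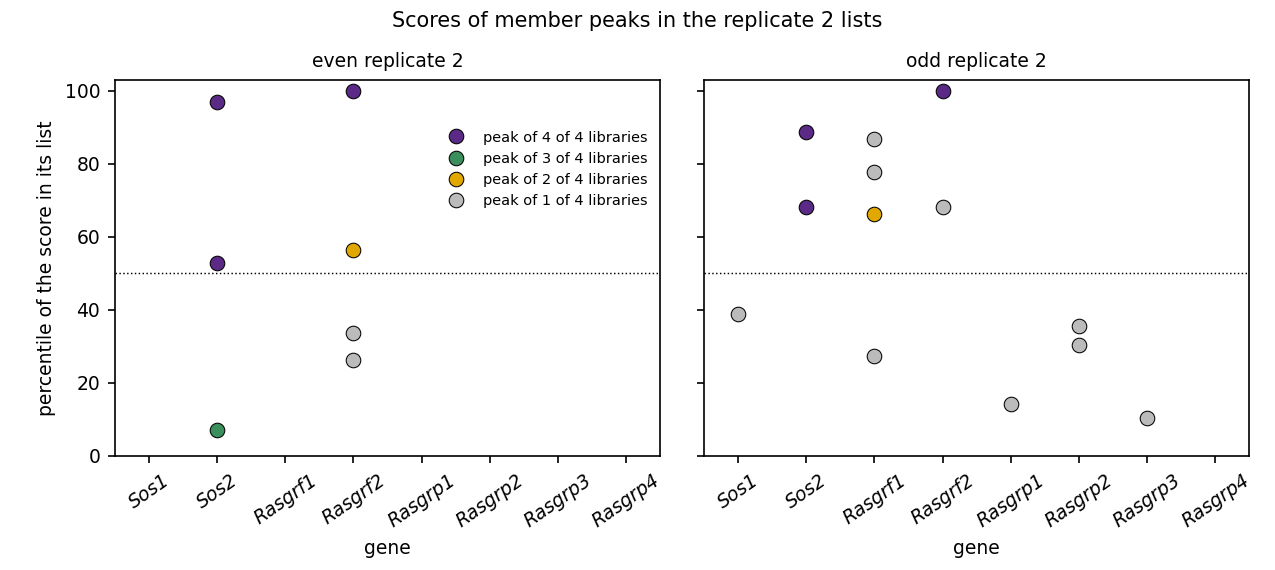
Percentile of each member peak's score within its own list (vertical axis) by gene, for even replicate 2 (left) and odd replicate 2 (right), coloured by the number of libraries in the merged region, with a dotted line at the list median. The region of Rasgrf2 in 4 libraries sits at the 99.96 and 99.94 percentiles.

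A region of all 4 libraries was found at 0 of 63 other genes of the Ras pathway, against 1.60% of all protein-coding genes. At so low a share, a count of 0 says little about these genes, and the share was not matched for gene length. At least 1 region with an even and an odd peak was present at 15 of the 63, where genes of like length gave 17.0. By role these were 6 of 18 other exchange factors with a CDC25 domain (5.87 by length), 1 of 6 Ras GTPases (0.905), 2 of 10 Ras GTPase-activating proteins (2.94), 4 of 12 adaptors (3.93), 2 of 9 members of the RAF, MEK and ERK kinase cascade (2.33) and 0 of 9 inhibitors of the cascade (1.275). Rasa1 stands both among the GTPase-activating proteins and among the inhibitors, and the 63 genes are counted without repeats. The median gene of these lists had 0 such regions and 4 peaks, and the median of all protein-coding genes was 0 regions and 2 peaks, with median lengths of 64.6 and 17.2 kb.

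Plce1, a phospholipase C with a CDC25 domain whose loss causes nephrotic syndrome in humans, had 2 such regions and 26 peaks, where genes of like length gave means of 1.055 and 16.6. The Rap exchange factor genes Rapgef2 and Rapgef4 had 1 region each, with 14 and 22 peaks against 12.3 and 15.45 by length. Mras, which codes for a Ras-related GTPase, had 2 regions and 12 peaks, against 0.28 and 4.11 by length, with 4 and 0 peaks in even replicates 1 and 2 and 1 and 7 in odd replicates 1 and 2. Rasal2 and Dab2ip, which code for GTPase-activating proteins, had 2 and 1 regions, against 0.96 and 0.645 by length. The adaptor genes Gab2 and Sh3kbp1 had 2 each (0.71 and 1.125 by length) and the ubiquitin ligase gene Cbl had 1 (0.35). The scaffold gene Ksr2 had 2 (1.12 by length) and the kinase gene Mapk3 had 1 (0.08). All genes named here were picked for having the most such regions in their list.

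The genes whose peak counts were most like those of the 2 members were found among protein-coding genes with the same number of regions of 4 libraries, by the sum of absolute differences in peak count over the 4 lists. For Sos2, 16 genes qualified, and the closest were Eppk1, which codes for epiplakin (sum 2), Morc2a (sum 4), whose window reaches into the neighbouring Tug1 gene, and the anoctamin gene Ano2 (sum 11). For Rasgrf2, 330 genes qualified, and the closest were Pdss2, an enzyme of coenzyme Q synthesis (sum 2), Btbd35f15 (sum 2) and Iqgap2, which codes for a scaffold protein (sum 3). Length served only to break ties, and some of these genes are far shorter than the member. Eppk1, Morc2a and Ano2 span 18.7, 41.3 and 350 kb, and Pdss2, Btbd35f15 and Iqgap2 span 247, 1.96 and 265 kb.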

How the data were processed

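Peaks of 4 pulldown libraries were used, 2 per probe set. The submitters' processing notes name the aligner Bowtie2 2.1.0 and the build mm10. Per the file names, each list was called against 1 input library of the same number, without pooling; peak names start with MACS, and for the caller no version or threshold is given in the sources used here. The only measurement is the deposited peak score of the authors, used to rank peaks within a list. The series-wide table (130269 peaks) repeats the 4 lists and was not used.

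Positions are 1-based on mm10. Gene ends came from RefSeq (GRCm38.p6, the same assembly), with starts and strand from its promoter windows. Peaks of different libraries formed 1 region where they overlapped by 1 bp or more. A gene's peaks and regions were those overlapping its span widened by 5 kb, set beside the 200 other protein-coding genes nearest in length. No test was run. Members, lists and alternatives were chosen with earlier results of these data known. Named were the 8 members, pathway genes with a region of 4 libraries (none was found), up to 3 genes per pathway list with the most even-odd regions (ties by symbol) and 3 look-alike genes per member with a region of 4 libraries (ties by gene length). Counting was tested on simulated data. Software was Python 3.11.15 with pandas 2.3.3, numpy 2.4.6 and matplotlib 3.10.9.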

Additional observations from a re-analysis of the deposited data

How the results depend on the processing

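Of 140 recalculated values 135 stayed within 1 SD of the libraries or, for counts, within 1.5 times. The SD limit is loose, since leaving out 1 of 4 libraries cannot move a mean over them by 1 SD. For some single genes the SD exceeded the ratio itself (Rasgrp2 1.72, SD 2.25, and Rasgrp3 0.977, SD 1.17). The number 135 therefore says little about how stable these values are. The alternatives were gene windows of 0, 2 and 10 kb, peaks scoring no lower than their list's median, a reciprocal overlap of 50%, 100 or 400 genes of like length or 50 on the same chromosome, same-numbered even and odd libraries only, each library left out, and Sos2 left out, which was chosen after seeing the data. Peaks per library at the 8 genes were 7.75 with peaks at or above the median score, against 11.25 with all peaks. In both replicate 1 lists that median is 3100, the score of 78.6% (even) and 99.9% (odd) of peaks. The score limit therefore acts mainly on the replicate 2 lists. Without Sos2 the ratio to genes of like length was 0.820, and 1 region with an even and an odd peak and 1 region of 4 libraries remained. With a window of 10 kb Rasgrp4 had 0.738 times the peaks of genes of like length, against 0. With a library left out in turn, peaks per library ranged from 10 to 12.7, the ratio from 0.928 to 1.02, regions with an even and an odd peak from 3 to 4, regions of all remaining libraries from 3 to 4, and member genes with such an even-odd region stayed at 2. Ratios of single genes that moved by over 1.5 times were those of Rasgrf1 (0.547, against 0.970) and Rasgrp1 (0.316, against 0.479) without odd replicate 2, Rasgrp3 without even replicate 1 (0.243, against 0.977) and Sos1 with the score limit (0.285, against 0.604). For Rasgrp2, at 1.72, the ratio was 0.763 without odd replicate 2, 2.70 without even replicate 1, 0.733 with a window of 2 kb, 0 within the gene alone, 0.791 with the score limit and 1.12 on its own chromosome. No paired analysis was possible because no result comes from a fitted test, which a replicate block needs. Pairing by number was applied to the regions alone. Counted between same-numbered even and odd libraries only, the 8 genes had 4 regions with an even and an odd peak, at 2 genes, the same numbers as between any even and any odd library. Unknown depth limits every count: a peak missing from a list does not show that the place was not recovered.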
